A study of Mus musculus with 18 samples.

Results

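The effect of Mbtps1 depletion on each gene was compared between MC38 cells in culture and MC38 tumours in mice, to see which effects were found in both settings, in one, or with opposite sign. MC38 cells derive from a colon adenocarcinoma of a C57BL/6 mouse. Members were the genes that had counts in both settings, were kept by the filter on low counts and had a mean of at least 5 CPM (counts scaled to the total of the library) in control cells. They number 9963 of the 15596 genes in the table. Another 2729 genes had counts in both settings and were not members. The genes just under the threshold were Klc4 (4.995 CPM), Nudt18 (4.988 CPM) and Ifit3 (4.983 CPM), and those just above it were Cdhr17 (5.004 CPM), Jph4 (5.012 CPM) and Arv1 (5.018 CPM).

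The 16 RNA libraries came from Mbtps1 WT cells (control, n = 3), Mbtps1 KD cells (knockdown, n = 3), Mbtps1 WT tumours (n = 5) and Mbtps1 KD tumours (n = 5). Both settings are labelled as knockdown, while the series' design text calls the cells knockout. Tumours grew from implanted MC38 cells in C57BL/6 wild-type mice, which have an intact immune system. The method of depletion, the number of clones, the age of the mice and the day of harvest are not given in the sources used here. No label states whether replicates are independent cultures or mice, and the p-values therefore rest on a spread between libraries that may be technical only.

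Site-1 protease, the product of Mbtps1, sits in the Golgi membrane and cuts membrane-anchored proteins in their lumenal part. The SREBP factors, which switch on genes of cholesterol and fatty acid synthesis, are held in the endoplasmic reticulum by SCAP and INSIG proteins when sterols are plentiful. When sterols run low they travel to the Golgi in COPII vesicles, where site-1 and then site-2 protease release their active part. The same pair of proteases releases ATF6, which drives endoplasmic reticulum chaperone genes, and CREB3-family factors, which drive genes of the secretory pathway. Tumour cells in a host meet other supplies of lipid, oxygen and signals than cells in a dish.

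Several facts about the libraries bear on what follows. Libraries of cells held 14240353 to 15515405 counts and those of tumours 19630410 to 32655739. Replicates of a group always differed by more than counting noise (chi-square per degree of freedom of 5.87 or more). Among the knockdown tumours, replicates 3 and 5 stood apart from replicates 1, 2 and 4, with a chi-square per degree of freedom of 50.2 to 124 across the 2 sets and 16.3 to 36.4 within them. Mitochondrial mRNAs took 1.5% to 2.78% of counts in control tumours and 2.88% to 7.07% in knockdown tumours, against 3.64% to 4.84% over all cell libraries. None of the leukocyte, T cell, NK cell, macrophage, neutrophil, B cell, endothelial and red cell markers was a member. T cell markers summed to 45.6 to 103 CPM in control tumours and to 109 to 142 in knockdown tumours. The NK cell markers, all at 0 in the 6 cell libraries, summed to 25.8 to 50.9 CPM in control tumours and to 80.8 to 118 in knockdown tumours. The fibroblast and mural cell markers, of which 5 are members and 2 are at 0 in cells, summed to 1210 to 1970 CPM in cells, to 3470 to 4420 CPM in control tumours and to 2600 to 3420 CPM in knockdown tumours.

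The base composition of transcripts moved with the libraries and with the genotype of the tumours. For each library the log2 level of a gene, relative to the mean of its setting, was regressed on the GC content and length of the transcript over 9677 members with a known sequence. Per 10 percentage points of GC, the level changed by 0.0725 to 0.214 on the log2 scale in the 5 control tumours and by -0.254 to -0.0885 in the 5 knockdown tumours, with no overlap. In cells the slopes were -0.138 to 0.0108 in control libraries and -0.0401, -0.00385 and 0.258 in knockdown libraries 2, 1 and 3, of which knockdown cells 3 stood apart. In tumours a difference of base composition and an effect of the knockdown cannot be told apart. Counts, and single genes whose class it changes, are therefore given also after a correction of each library for transcript GC content and length (corrected, below), which was chosen after seeing the data.

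**Figure D1:**
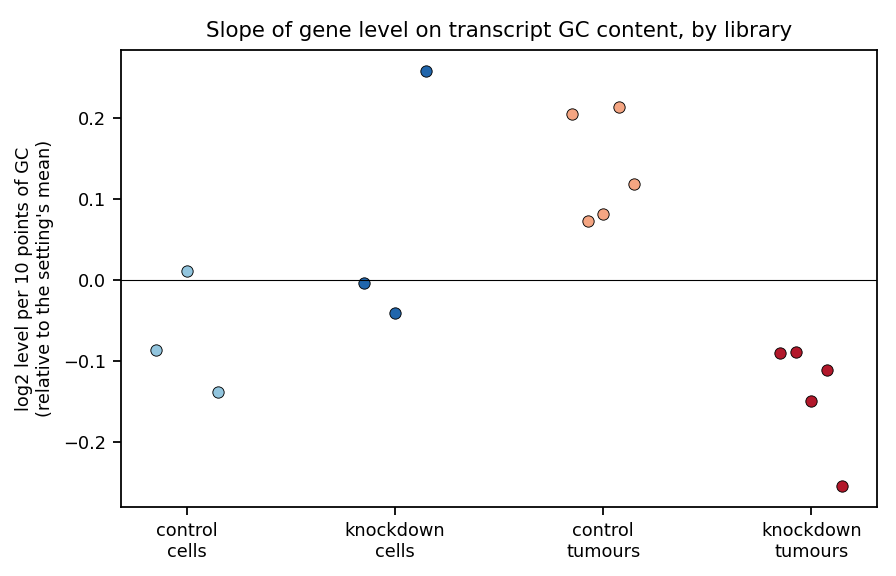
Each point is 1 library, and the vertical axis is the slope of the log2 level of 9677 genes on the GC content of their transcripts, per 10 percentage points and relative to the mean of the library's own setting. All 5 control tumours lie above 0 and all 5 knockdown tumours below it, and 1 knockdown cell library lies at 0.258.

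Mbtps1 itself was lower in all knockdown libraries of both settings. It stood at 129, 135 and 118 CPM in control cells and at 37.0, 35.7 and 34.8 CPM in knockdown cells. In control tumours it stood at 114, 110.3, 129.8, 128 and 122 CPM and in knockdown tumours at 50.1, 41.4, 57.1, 56.3 and 54.1 CPM. The groups did not overlap in either setting, and the knockdown left 28.1% of the mean control level in cells and 42.8% in tumours. The log2 fold change was -1.84 (SE 0.09, adjusted p = 3.1e-06) in cells and -1.21 (SE 0.09, adjusted p = 1.2e-05) in tumours. The difference between settings (tumour effect minus cell effect, the interaction) was 0.65 (SE 0.14, adjusted p = 0.00328), and 0.78 when corrected (adjusted p = 0.00113). A tumour library mixes RNA of MC38 cells with RNA of host cells, which carry the gene intact. A smaller share of MC38 cells and less RNA per cell cannot be told apart in such a library, here or in any tumour value below.

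Of all members, 296 were called in the same direction in both. A gene was called at an adjusted p under 0.05 in edgeR's quasi-likelihood test (Benjamini-Hochberg). Of the 9963 members, 997 were called in cells, 352 higher and 645 lower, and 4166 in tumours, 2062 higher and 2104 lower. Over all genes tested, 9.33% were called in cells (3.76% higher, 5.57% lower) and 38.4% in tumours (20.1% higher, 18.3% lower). Of the 997 genes called in cells, 447 (44.8%) were also called in tumours, against 41.8% of all members. A gene lower in cells was lower in tumours in 31.6% of cases and higher in 15.8%, where 21.1% and 20.7% of all members were lower and higher. A gene higher in cells was higher in tumours in 26.1% of cases and lower in 13.9%. Corrected, 41.2% of 1409 genes called in cells were also called in tumours, against 32.8% of all members, and of these 72.6% kept their direction. Across the 9963 members the effects in cells and tumours had a Spearman correlation of 0.025, and 0.18 when corrected, a description across genes that share libraries and base composition.

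The interaction was called in 2548 members (25.6%), 1515 with a higher and 1033 with a lower effect in tumours, where 22.7% of all genes tested were called (12.7% higher, 9.95% lower). Corrected, it was called in 1377 members, 745 higher and 632 lower. Of the 2548 calls, 1000 were called with the same sign after the correction and 47 changed sign. From the 3 tests each member took 1 class. An effect was shared where the gene was called in both settings in the same direction (296 genes, 92 higher and 204 lower). It was opposite where the gene was called in both in different directions (151 genes, 49 higher and 102 lower in cells). It was lost where the gene was called in cells and not in tumours and the interaction was called against it (328 genes, 109 higher and 219 lower in cells). It was gained where the gene was called in tumours and not in cells and the interaction was called with it (1696 genes, 976 higher and 720 lower in tumours). In 110 of the gained genes the effect in tumours was smaller in size than the uncalled effect in cells. Another 2245 members were called in 1 setting without a called interaction, so that their settings could not be told apart, and 4909 were called in no test. The last 338 had a called interaction alone. Under the correction 217 shared, 72 opposite, 126 lost and 536 gained genes kept class and direction. Control and knockdown libraries did not overlap in cells for 293 of the 296 shared, 324 of the 328 lost and all 151 opposite genes. In tumours they did not for 169 shared, 84 opposite and 1234 gained genes. Of the 4909 genes called in no test, they did not for 1133 in cells and 71 in tumours. They also did not for 502 of the 1696 gained genes in cells and for 1 lost gene in tumours. Of the 2245 genes called in 1 setting without a called interaction, they did not for 649 in cells and 924 in tumours. For the 338 genes with a called interaction alone the numbers were 266 and 22. Calls and overlap rest on the same libraries, so a lack of overlap is no further support for a class.

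Single libraries moved these counts. Without control cells 1, control cells 2 or knockdown cells 1, the calls in cells fell from 997 to 253, 423 or 295, and the shared, lost and opposite classes to 103, 90 and 28 genes, 133, 160 and 62, or 114, 107 and 37. Without control cells 3, 204 genes were lost, 1114 gained and 85 opposite. Without knockdown cells 2, 251 were opposite. Without knockdown cells 3, 216 were lost and 1009 gained, and the interaction was called higher in 925 and lower in 562 members. In fits without control cells 1 or control cells 3 it was called lower in 644 members either way. Without knockdown tumours 3 and 5 together, 1113 genes were gained and 99 opposite. Of 164 classed genes of the lists and rules used here, 64 kept their class in all 16 fits that left out 1 library, and fits below refers to these 16.

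**Figure D2:**
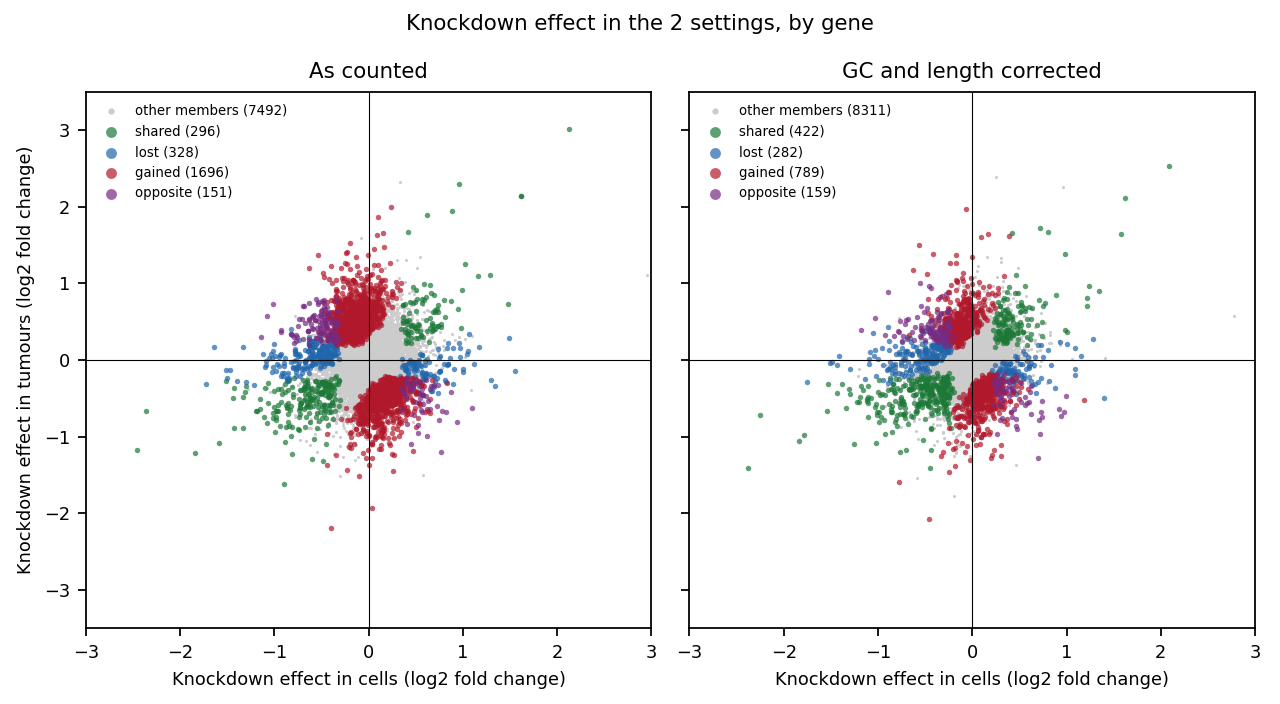
Each point is 1 of the 9963 members, with its log2 fold change of knockdown against control in cells on the horizontal axis and in tumours on the vertical axis, as counted on the left and corrected for transcript GC content and length on the right. Colours mark the classes, and the gained class shrinks from 1696 to 789 genes under the correction while the shared class grows from 296 to 422.

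Genes of cholesterol synthesis, the main targets of the SREBP factors, were called lower in knockdown cells and, in fewer cases, higher in knockdown tumours. Of 21 members of a list of the pathway's enzymes with genes of sterol transport, 16 were lower and 0 higher in cells, while 7 were higher and 1 was lower in tumours. Beside this and every list below stand the shares over all members, 3.53% higher and 6.47% lower in cells. In tumours these shares were 20.7% and 21.1%. Corrected, the shares higher and lower were 5.19% and 8.95% in cells and 15.5% and 17.3% in tumours. Over all members the interaction was called higher in 15.2% and lower in 10.4%, and corrected in 7.48% and 6.34%. Among the 21 list members the interaction was called in 14, all with a higher effect in tumours, and corrected in 12, again all higher. The median log2 fold change was -0.58 in cells and 0.16 in tumours (corrected -0.60 and 0.07), where the medians over all members were -0.01 in both. The median difference between settings was 0.69 (corrected 0.60), against 0.02 over all members. By class, 6 were opposite, 7 lost and 1 shared (corrected 5, 7 and 0). Leaving out any 1 library kept the number of called interactions between 13 and 16 and the median difference between 0.63 and 0.81. After leaving out control cells 1, control cells 2 or knockdown cells 1 the number lower in cells was 9, 10 or 9. Without control tumour 3, control tumour 4 or knockdown tumour 5 the number higher in tumours was 4. Without knockdown tumours 3 and 5 together, 16 interactions were called.

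The promoters of Insig1, a sterol-regulated gene outside that list, and of Cyp51 and Hmgcs1 are printed because their effects changed direction between settings. Each line is the 250 bases before the gene's start, 5′ to 3′ on the gene's strand, from the RefSeq promoters of GRCm38.p6. Capitals mark matches, on either strand, to the sterol element TCACNCCAC and to the CCAAT box, bound by NF-Y, a partner of SREBP. Insig1 lies at chr5:28071162-28071411 on the plus strand, Cyp51 at chr5:4104698-4104947 on the minus strand and Hmgcs1 at chr13:119690101-119690350 on the plus strand.
Insig1: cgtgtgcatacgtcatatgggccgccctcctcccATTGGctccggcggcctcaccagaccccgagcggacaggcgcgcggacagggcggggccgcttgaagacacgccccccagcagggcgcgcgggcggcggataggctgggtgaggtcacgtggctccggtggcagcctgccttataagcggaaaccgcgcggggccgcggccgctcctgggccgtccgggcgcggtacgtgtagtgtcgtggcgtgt
Cyp51: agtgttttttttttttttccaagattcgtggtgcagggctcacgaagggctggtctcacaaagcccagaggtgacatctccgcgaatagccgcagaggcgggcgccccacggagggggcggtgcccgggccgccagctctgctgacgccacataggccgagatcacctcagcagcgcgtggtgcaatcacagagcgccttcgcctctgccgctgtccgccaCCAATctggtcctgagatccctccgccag
Hmgcs1: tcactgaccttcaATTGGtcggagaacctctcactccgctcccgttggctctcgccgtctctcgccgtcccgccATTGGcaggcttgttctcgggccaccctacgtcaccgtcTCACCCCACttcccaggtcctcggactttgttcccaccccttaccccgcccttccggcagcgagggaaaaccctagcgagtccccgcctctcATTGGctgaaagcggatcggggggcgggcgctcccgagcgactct
Of the 14 list members with a promoter in the RefSeq table, 13 hold a CCAAT box and 1, Hmgcs1, the sterol element as spelled here, in windows from 250 bases before to 50 after the start. Of all 32851 promoters 37.4% and 1.24% do. In a promoter without a match only these letters are missing from this window.

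Insig1, which encodes the protein that retains SCAP and SREBP in the endoplasmic reticulum and is itself a SREBP target, showed the reversal in single libraries. Control cells held 156, 156 and 112 CPM and knockdown cells 72.8, 69.8 and 82.2 CPM. Control tumours held 59.3, 47.8, 46.0, 45.1 and 48.9 CPM and knockdown tumours 57.9, 66.1, 54.5, 62.5 and 74.2 CPM. Knockdown cells were all below control cells, and in tumours 1 control library, replicate 1, lay within the range of the knockdown libraries. The effect was -0.93 (SE 0.13, adjusted p = 0.00149) in cells and 0.37 (SE 0.10, adjusted p = 0.0118) in tumours, an interaction of 1.31 (SE 0.17, adjusted p = 1.2e-04) and of 1.26 when corrected (adjusted p = 2.3e-04). The class was kept in 16 of 16 fits.

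Msmo1, a methylsterol oxidase of the later steps, had the largest interaction of the list. Its levels were 155, 143 and 119.9 CPM in control cells and 86.5, 83.5 and 89.0 CPM in knockdown cells. In tumours they were 48.1, 42.0, 37.6, 36.2 and 41.5 CPM in control and 62.0, 65.2, 65.5, 59.8 and 78.7 CPM in knockdown libraries. The groups overlapped in neither setting, with knockdown below control in cells and above it in tumours. The effects were -0.70 (SE 0.10, adjusted p = 0.00238) and 0.70 (SE 0.10, adjusted p = 3.6e-04), an interaction of 1.42 (SE 0.16, adjusted p = 2.6e-05), and corrected of 1.22 (adjusted p = 1.1e-04), with the class kept in 16 of 16 fits. Cyp51, the sterol demethylase, went from 247 ± 20.9 to 145 ± 3.34 CPM in cells (SD, n = 3 each) and from 128 ± 16.3 to 159 ± 16.1 CPM in tumours (SD, n = 5 each). Its effects were -0.77 (SE 0.09, adjusted p = 6.1e-04) and 0.32 (SE 0.09, adjusted p = 0.0148), opposite in 16 of 16 fits and when corrected.

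The other opposite genes of the pathway were Hmgcs1, which makes the HMG-CoA of the first committed steps, Sqle and Lss, which make and close the sterol skeleton, and Nsdhl. Hmgcs1 stood at 193, 195 and 133 CPM in control cells, 95.6, 99.7 and 107 in knockdown cells, 90.5, 67.7, 72.8, 66.5 and 73.0 in control tumours and 91.2, 87.7, 78.1, 94.8 and 98.9 in knockdown tumours. The highest control tumour overlapped the knockdown tumours. Its effects were -0.80 (SE 0.13, adjusted p = 0.00427) and 0.30 (SE 0.09, adjusted p = 0.0204). Corrected, the tumour effect of Hmgcs1 was 0.12 (adjusted p = 0.337) and it counted as lost. Sqle had effects of -0.45 (SE 0.09, adjusted p = 0.012) and 0.46 (SE 0.09, adjusted p = 0.00243) and stayed opposite when corrected, but its call in cells was missed without control cells 1, control cells 2 or knockdown cells 1. The tumour effect of Lss was small, 0.22 (SE 0.08, adjusted p = 0.0459), and its class held in 8 of 16 fits. Nsdhl, -0.75 in cells and 0.30 in tumours, was opposite as counted and lost when corrected. Its class, like those of Sqle and Fdft1, was missed without control cells 1, control cells 2 or knockdown cells 1.

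Lost effects included those of enzymes before squalene. The isomerase gene Idi1 was -0.79 in cells and 0.08 in tumours (interaction adjusted p = 0.0066, corrected 0.137). Fdps and Fdft1, the synthases that lead to squalene, were -0.61 and -0.57 in cells and 0.04 and 0.05 in tumours, and both stayed lost when corrected. Fdps kept its class in 6 of 16 fits. Stard4, a sterol carrier, was -0.63 in cells and 0.19 in tumours, lost also when corrected. Hsd17b7 was -0.50 in cells and 0.17 in tumours, with a corrected interaction that did not pass (adjusted p = 0.0618).

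Other enzymes of the pathway did not share the pattern. Dhcr7, which makes cholesterol from its direct precursor, was lower in both settings, -0.79 (SE 0.11, adjusted p = 0.0015) and -0.23 (SE 0.08, adjusted p = 0.0281), and smaller in tumours (interaction 0.58 (SE 0.13, adjusted p = 0.00528)). Corrected, its tumour effect was -0.12 (adjusted p = 0.19), and its class was kept in 12 of 16 fits. Mvk, Pmvk and Mvd, consecutive enzymes of the mevalonate branch, passed in neither setting as counted, at -0.39 in cells and -0.37 in tumours for Mvk, whose corrected effect in cells passed (-0.62, adjusted p = 0.00411). Ebp was higher in tumours alone (0.34 (SE 0.11, adjusted p = 0.0244)), with an interaction that did not pass (adjusted p = 0.35). Of the 21 genes, 16 had a lower mean level in control tumours than in control cells, with a median ratio of 0.451 where that of all members was 0.853.

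**Figure D3:**
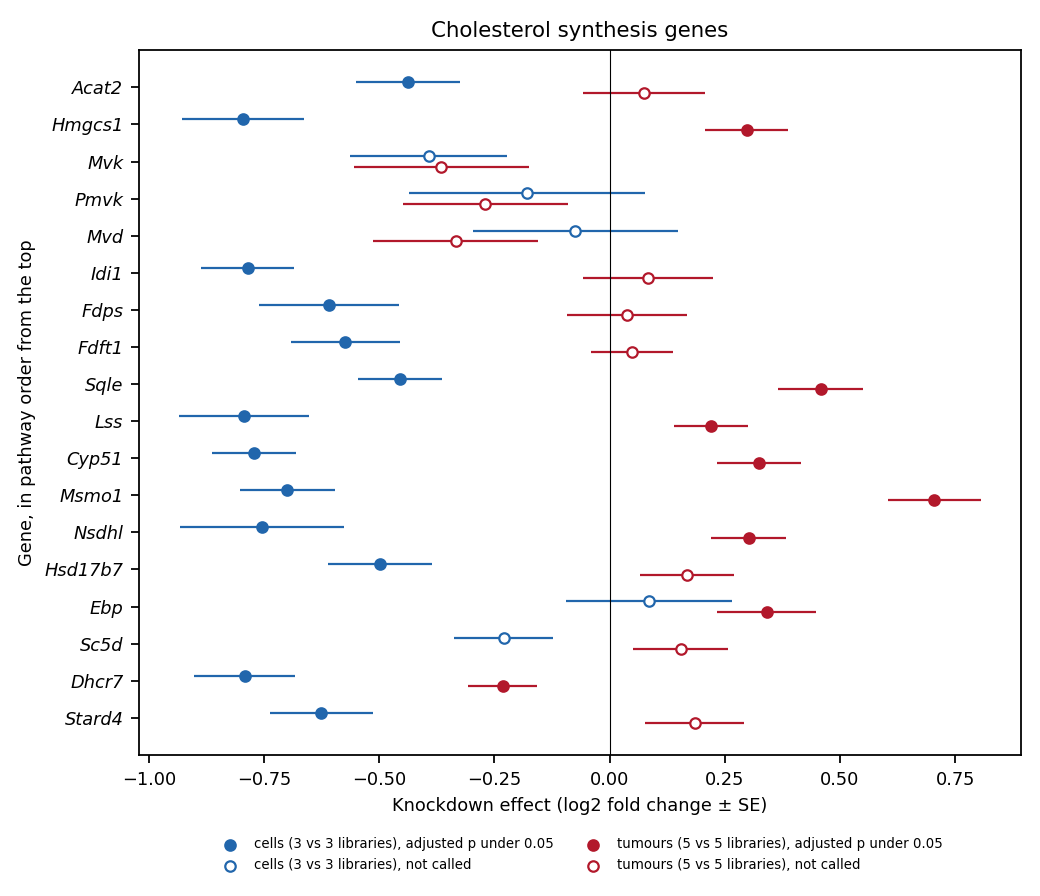
Log2 fold changes of knockdown against control with their standard errors for 18 cholesterol genes, in cells (blue, 3 against 3 libraries) and in tumours (red, 5 against 5), with filled points for an adjusted p under 0.05. The filled blue points lie between -0.80 and -0.44 and all but 1 of the filled red points lie above 0.

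Fatty acid genes, also SREBP targets, moved less evenly. Of 16 members, 6 were lower and 0 higher in cells, and 2 were higher and 3 lower in tumours. The median was -0.34 in cells and -0.12 in tumours (corrected -0.26 and -0.01), and the interaction was called in 5 genes, all with a higher effect in tumours, as counted and corrected. Without control cells 1, control cells 2 or knockdown cells 1 the number lower in cells was 2, and without knockdown cells 3 it was 3. Scd1, the stearoyl-CoA desaturase, went from 330.4 ± 52.0 to 214 ± 2.65 CPM in cells and from 114 ± 12.8 to 131 ± 18.4 CPM in tumours (SD, n = 3 and n = 5 each). That was -0.64 (SE 0.11, adjusted p = 0.00602) and 0.22 (SE 0.10, adjusted p = 0.106), a lost effect also when corrected. The elongase gene Elovl6 was lost likewise, -0.74 in cells and 0.08 in tumours. Scd2 was opposite, -0.77 (SE 0.17, adjusted p = 0.0162) and 0.24 (SE 0.08, adjusted p = 0.0352), in 5 of 16 fits, and its corrected effect in cells did not pass (-0.67, adjusted p = 0.0916). Elovl5 was gained, -0.16 in cells and 0.36 in tumours, in all 16 fits and when corrected. Lpin1, a phosphatidate phosphatase gene, was -0.86 in cells and -0.17 in tumours and its corrected effect in cells did not pass (adjusted p = 0.108).

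Of 14 members that encode site-1 protease, its partners and its substrates, 2 were lower in cells, Mbtps1 and Insig1, and 3 were higher and 7 lower in tumours (corrected 1 higher and 5 lower in cells, 1 and 4 in tumours). Of all members 6.47% were lower in cells as counted and 8.95% when corrected. Srebf1 was -0.22 in cells and -0.17 in tumours and passed in neither setting as counted, while its corrected effect in cells did (-0.31, adjusted p = 0.0157), and Srebf2 was lower in tumours alone (-0.25 (SE 0.08, adjusted p = 0.0206); corrected -0.02, adjusted p = 0.838). Without knockdown tumours 3 and 5, 4 members were lower in tumours. Scap was 0.11 in cells and -0.45 in tumours and Mbtps2, which encodes site-2 protease, -0.31 in cells and 0.34 in tumours. Both counted as gained, but corrected neither passed in either setting. Atf6 was 0.07 in cells and -0.31 in tumours (adjusted p = 0.76 and 0.0194), and Creb3l2, a CREB3-family factor gene, was -0.23 in cells and -0.56 in tumours (adjusted p = 0.326 and 8.9e-04), the interactions not passing. Corrected, Atf6 was opposite, 0.25 in cells and -0.32 in tumours (interaction adjusted p = 0.0066).

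Endoplasmic reticulum chaperone genes were called higher in knockdown tumours more often than lower. Of 24 members, 11 were higher and 2 lower in tumours, while in cells 0 passed edgeR's test in either direction. In cells 3 were higher and 2 lower at an unadjusted p under 0.05, and DESeq2 called 1 higher and 0 lower. Corrected, 4 were lower in cells, and 8 higher and 2 lower in tumours. The interaction was called in 7, 6 of them higher, and corrected in 4, 3 of them higher. The medians were -0.05 in cells and 0.19 in tumours (corrected -0.0048 and 0.19). Pdia3, a disulfide isomerase that folds glycoproteins and MHC class I, stood at 855, 801 and 818 CPM in control and 819, 788 and 797 CPM in knockdown cells. In tumours it stood at 558, 614, 606, 463 and 546 CPM in control and 724, 875, 1021, 791 and 1147 CPM in knockdown libraries. The tumour groups did not overlap and the cell groups did. Its effects were -0.05 (SE 0.08, adjusted p = 0.741) and 0.73 (SE 0.13, adjusted p = 0.00146), gained in 16 of 16 fits and when corrected. Hsp90b1, the HSP90 of the endoplasmic reticulum, was gained too, -0.11 in cells and 0.58 in tumours (interaction adjusted p = 0.00668, corrected 0.0499).

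Hspa5 encodes BiP, the chaperone that marks the activity of ATF6, and its promoter is printed because it holds the complete endoplasmic reticulum stress element, a CCAAT box and the letters CCACG with 9 bases of any kind between them (capitals, searched on both strands). It is the 250 bases before the start, at chr2:34771840-34772089 on the plus strand of GRCm38.p6.
Hspa5: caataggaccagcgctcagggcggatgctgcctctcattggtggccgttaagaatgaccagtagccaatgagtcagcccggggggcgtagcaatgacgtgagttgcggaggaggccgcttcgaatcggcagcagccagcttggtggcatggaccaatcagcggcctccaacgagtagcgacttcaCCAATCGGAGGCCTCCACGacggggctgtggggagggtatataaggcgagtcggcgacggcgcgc
This element occurred in 8 of the 21 chaperone members with a RefSeq promoter (Hspa5, Hsp90b1, Calr, Canx, Pdia6, Dnajc3, Creld2 and Syvn1) and in 0.119% of all promoters. Hspa5 went from 1242 ± 50.8 to 1375 ± 71.5 CPM in cells and from 701 ± 37.3 to 1034 ± 139.8 CPM in tumours (SD, n = 3 and n = 5 each). Its effects were 0.14 (SE 0.09, adjusted p = 0.338) and 0.58 (SE 0.10, adjusted p = 0.0011), and the interaction, 0.46 (SE 0.15, adjusted p = 0.031), held in 7 of 16 fits and did not pass when corrected (adjusted p = 0.184). Derl2, which helps to draw misfolded proteins out for degradation, was -0.11 in cells and 0.73 in tumours (interaction adjusted p = 0.0058), with a corrected interaction that did not pass (adjusted p = 0.0603). Calr, the lectin chaperone, passed in neither setting as counted (-0.17 in cells and -0.06 in tumours) and in cells when corrected (-0.23, adjusted p = 0.0357).

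The coat proteins and receptors of traffic between endoplasmic reticulum and Golgi formed the list with most shared effects. Of 30 members, 12 were lower and 0 higher in cells, and 17 were lower and 3 higher in tumours. Corrected, 14 were lower in cells and 16 in tumours, with 0 higher in either. The medians were -0.28 and -0.31 (corrected -0.23 and -0.29), and the median difference was 0.05 (corrected -0.01). The interaction was called in 5 genes as counted and in 0 when corrected. Shared were 9 genes, all lower, of which 7 stayed so when corrected. In fits without control cells 1, control cells 2 or knockdown cells 1, 3, 4 or 3 were lower in cells, and the same numbers were shared. Without knockdown cells 3, 0 interactions had a higher effect in tumours, against 4 as counted.

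Kdelr3, a receptor that returns chaperones to the endoplasmic reticulum, was the most reduced of them. It stood at 48.1, 44.2 and 33.8 CPM in control cells and at 19.8, 23.6 and 25.1 CPM in knockdown cells. In control tumours it stood at 62.2, 73.3, 69.0, 65.7 and 71.6 CPM and in knockdown tumours at 39.6, 26.6, 31.1, 35.8 and 28.2 CPM. No group overlapped its control, and 54.3% of the control mean was left in cells and 47.2% in tumours. The effects were -0.89 (SE 0.14, adjusted p = 0.00379) and -1.07 (SE 0.10, adjusted p = 3.7e-05), an interaction of -0.16 (SE 0.18, adjusted p = 0.547), shared in 16 of 16 fits. Sec23a, a subunit of the inner COPII coat, stood at 144, 129 and 110.3 CPM in control cells, 74.2, 80.6 and 75.4 in knockdown cells, 37.1, 44.2, 45.7, 40.9 and 40.9 in control tumours and 29.3, 28, 27.6, 32.6 and 27.8 in knockdown tumours. It too was free of overlap in both settings, with effects of -0.74 (SE 0.11, adjusted p = 0.00197) and -0.51 (SE 0.08, adjusted p = 5.6e-04), shared in 16 of 16 fits.

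Of the outer COPII coat, Sec13 was -0.31 in cells and -0.52 in tumours and Sec31a -0.50 in cells and -0.43 in tumours, and of the COPI coat, which carries cargo back, Copa was -0.40 in cells and -0.43 in tumours, Copg2 -0.65 in cells and -0.34 in tumours and Arcn1 -0.38 in cells and -0.35 in tumours. The cargo receptor gene Surf4 was -0.37 in cells and -0.44 in tumours. All 6 were called in both settings as counted, and all but Sec31a also when corrected (its tumour effect was then -0.28, adjusted p = 0.0569). After leaving out control cells 1 or knockdown cells 1, Sec13, Sec31a, Copa, Arcn1 and Surf4 left the shared class. Copg1 was called in tumours alone as counted (-0.29 in cells and -0.60 in tumours) and in both settings when corrected. Kdelr2, -0.34 in cells and 0.07 in tumours, was lost as counted, in 3 of 16 fits. Its corrected interaction did not pass (adjusted p = 0.104).

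Of 16 interferon gamma response members, 4 were higher in cells and 10 in tumours by edgeR, with 0 lower in either, also when corrected (5 and 9 higher). At an unadjusted p under 0.05, and also by DESeq2, 1 was lower in tumours and 0 in cells. The count rests on where the member threshold is set: 8 of 20 were higher in cells and 14 in tumours at 1 CPM or more, and 2 of 9 and 5 at 20 CPM or more. Only 3 members were at most 2 times higher in control tumours than in control cells, and edgeR called 0 of these in either setting, with medians of -0.15 in cells and 0.0045 in tumours. The medians over the 16 members were 0.37 in cells and 0.39 in tumours, and 3 genes were shared (corrected 4). Without control cells 1 or knockdown cells 1, 2 were higher in cells. Cxcl10, a chemokine for activated T cells, stood at 37.9, 39.2 and 35.5 CPM in control and 81.2, 77.6 and 66.6 CPM in knockdown cells. In tumours it stood at 392, 399, 309.5, 387 and 314 CPM in control and 498, 522, 847, 658 and 840.1 CPM in knockdown libraries. The groups overlapped in neither setting, and the effects were 0.99 (SE 0.11, adjusted p = 3.8e-04) and 0.92 (SE 0.16, adjusted p = 0.0011), shared in 16 of 16 fits. Cd274, which encodes PD-L1, the ligand that restrains T cells, stood at 11.1, 10.3 and 10.4 CPM in control cells, 19.4, 17.5 and 14.9 in knockdown cells, 69.0, 46.3, 50.8, 56.1 and 51.4 in control tumours and 98.0, 84.3, 107, 86.6 and 110.4 in knockdown tumours. No knockdown library overlapped its controls. Its effects were 0.69 (SE 0.15, adjusted p = 0.0162) and 0.85 (SE 0.12, adjusted p = 2.8e-04), an interaction of 0.17 (SE 0.20, adjusted p = 0.549). The call in cells was missed without control cells 1, control cells 2 or knockdown cells 1. Gbp2, an interferon-induced GTPase, was 0.59 in cells and 0.78 in tumours.

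These genes were also higher in control tumours than in control cells, by a median of 5.69 times for the interferon gamma list and 6.02 times for MHC class I presentation, and host RNA is part of each tumour value. The summed NK and T cell markers were higher in every knockdown tumour than in every control tumour, and their part in these results was not tested. Some members differed between settings. Gbp7 was -0.03 (SE 0.26, adjusted p = 0.958) in cells and 1.06 (SE 0.10, adjusted p = 2.4e-05) in tumours (interaction 1.11 (SE 0.26, adjusted p = 0.00643), which did not pass when corrected, 0.72, adjusted p = 0.0641). Socs1, an inhibitor of cytokine signalling, was 1.17 in cells and 0.17 in tumours and lost as counted, but shared when corrected. Of 20 type I interferon members, 1 was higher in cells, where 3.53% of all members were. In tumours 6 were higher and 4 lower, where 20.7% and 21.1% of all members were. Corrected, 1 of the 20 was higher and 1 lower in cells, and 7 and 6 in tumours. DESeq2 called 3 higher and 1 lower in cells. Of the 3 members at most 2 times higher in control tumours, edgeR called 1, lower in tumours, and at 1 CPM or more 7 of 28 had a called interaction with a lower effect in tumours, against 3 of 20. Without control tumour 3, 4 or 5 or knockdown tumour 3, 3 were higher in tumours, and without knockdown tumours 3 and 5, 2. Isg15, a ubiquitin-like modifier, was 0.84 (SE 0.27, adjusted p = 0.0786) in cells and -0.29 (SE 0.09, adjusted p = 0.0254) in tumours, a gained effect also when corrected, in 13 of 16 fits. As counted, the uncalled rise of Isg15 in cells was larger in size than its fall in tumours. Rsad2, which encodes viperin, passed in neither setting (1.09 in cells and -0.38 in tumours) while its interaction did (-1.46 (SE 0.37, adjusted p = 0.00996)). Corrected, its tumour effect passed too (-0.52, adjusted p = 0.0213).

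In MHC class I presentation 6 of 21 members were higher in cells and 6 in tumours, with 0 lower by edgeR as counted (7 higher and 4 lower in cells, 9 higher in tumours when corrected), and the medians were 0.15 and 0.14 (corrected 0.07 and 0.16). DESeq2 called 1 lower in each setting, and at an unadjusted p under 0.05 2 were lower in cells and 1 in tumours. Of the 3 members at most 2 times higher in control tumours than in control cells, 2 were higher in tumours and 0 were called in cells by edgeR. In fits without control cells 1, control cells 3 or knockdown cells 1, 1, 2 or 2 were higher in cells. The proteasome activator genes Psme1 (0.52 in cells and 0.29 in tumours) and Psme2 (0.65 in cells and 0.54 in tumours) were shared, also when corrected, in 6 and 14 of 16 fits. The immunoproteasome subunit gene Psmb10 was lost: it went from 37.2 ± 4.93 to 77.2 ± 21.8 CPM in cells and from 328 ± 44.5 to 342 ± 22.2 CPM in tumours (SD, n = 3 and n = 5 each), effects of 1.04 (SE 0.17, adjusted p = 0.00421) and 0.08 (SE 0.10, adjusted p = 0.532). Nlrc5, the transactivator of class I genes, was gained, -0.01 (SE 0.14, adjusted p = 0.959) and 0.81 (SE 0.12, adjusted p = 4.5e-04), in 16 of 16 fits and when corrected. B2m, the class I light chain, was -0.10 in cells and 0.59 in tumours, and its corrected tumour effect did not pass (0.14, adjusted p = 0.291).

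Of 19 NF-kappa-B target members, 5 were higher in cells and 10 in tumours by edgeR's test, and 5 were shared (corrected 4). With 0 lower in either setting by edgeR, 1 was lower in cells and 3 in tumours at an unadjusted p under 0.05, and in tumours DESeq2 called 2 lower and limma voom 1. The medians were 0.17 and 0.28 (corrected 0.14 and 0.33). Corrected, 5 were higher in cells and 11 in tumours. After leaving out control cells 1 or knockdown cells 1, 3 were higher in cells. Ccl7, a monocyte chemokine, stood at 15.7, 12.4 and 15.7 CPM in control cells and 38.6, 37.4 and 32.0 CPM in knockdown cells. In tumours it stood at 32.4, 19.7, 26.5, 17.9 and 21.5 CPM in control and 47.3, 60.5, 35.1, 44.8 and 63.7 CPM in knockdown libraries. It was higher in each knockdown library than in any control library of its setting, by 1.29 (SE 0.14, adjusted p = 3.8e-04) and 1.11 (SE 0.18, adjusted p = 6.9e-04), and shared in 16 of 16 fits. Cxcl1, a neutrophil chemokine, was shared with a larger effect in tumours, 0.88 (SE 0.17, adjusted p = 0.00873) and 1.95 (SE 0.19, adjusted p = 4.4e-05), an interaction of 1.09 (SE 0.28, adjusted p = 0.0112), and its call in cells was missed without control cells 1 or knockdown cells 1. Csf1, the macrophage growth factor, was 0.55 in cells and 0.32 in tumours and Nfkbia, the inhibitor of NF-kappa-B, 0.56 in cells and 0.32 in tumours, shared in 16 and 10 of 16 fits. Vcam1, an adhesion receptor for leukocytes, was gained: 93.3 ± 4.66 and 93.2 ± 3.72 CPM in cells, 119.7 ± 6.92 and 205 ± 25.9 CPM in tumours (SD, n = 3 and n = 5 each). Its effects were -0.01 (SE 0.09, adjusted p = 0.95) and 0.79 (SE 0.09, adjusted p = 7.9e-05), gained in 16 of 16 fits and when corrected.

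Of 20 matrix genes, 2 were lower in cells, and 14 were lower and 1 higher in tumours. Corrected, 3 were higher and 4 lower in cells, and 1 higher and 9 lower in tumours. Among the 11 at most 2 times higher in control tumours than in control cells, 1 was lower in cells, and 6 were lower and 1 higher in tumours. DESeq2 called 5 of the 20 lower in cells. The medians over all 20 were -0.11 in cells and -0.46 in tumours (corrected -0.08 and -0.24), and 8 lower effects were gained (corrected 3). The gained class was kept in 4, 6 and 6 of 16 fits by Col6a2, Fbln1 and Lamc1, and in 16 by Fn1, Sparc and Hspg2. Fn1, which encodes fibronectin, stood at 1072, 1113 and 811 CPM in control and 951, 1059 and 793 CPM in knockdown cells. In tumours it stood at 3089, 4496, 4094, 5162 and 4908 CPM in control and 1753, 1232, 1569, 1750 and 1239 CPM in knockdown libraries. The cell groups overlapped, and every knockdown tumour was below every control tumour. The effects were -0.10 (SE 0.13, adjusted p = 0.663) and -1.52 (SE 0.16, adjusted p = 5.7e-05), an interaction of -1.40 (SE 0.23, adjusted p = 6.9e-04), and corrected of -1.28 (adjusted p = 6.0e-04), gained in 16 of 16 fits. Sparc, a collagen-binding matricellular protein, was 0.17 in cells and -0.50 in tumours and Hspg2, the perlecan of basement membranes, -0.02 in cells and -0.72 in tumours, both gained also when corrected. In control tumours the mean of Fn1 was 4350 CPM against 999 in control cells, and that of Sparc 1237 against 268. The sum of the fibroblast and mural markers, of which 5 are members, was lower in every knockdown tumour than in every control tumour. Single markers differed: in knockdown tumours Dcn stood at 112% of its control mean, Col3a1 at 74.3% and Dpt at 42.9%. The part of these markers in the results was not tested.

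Without knockdown tumours 3 and 5, 4 matrix genes had a called interaction with a lower effect in tumours, against 8 as counted, and single omissions of control tumours 3, 4 or 5, knockdown tumours 3 or 5 or knockdown cells 3 gave 5 and of control cells 3 gave 4. Spp1, which encodes osteopontin, was gained with a higher level, -0.23 (SE 0.27, adjusted p = 0.635) and 1.25 (SE 0.15, adjusted p = 1.6e-04). Col5a1, a fibrillar collagen, was shared, -0.75 (SE 0.14, adjusted p = 0.0077) and -0.90 (SE 0.10, adjusted p = 7.8e-05), also when corrected. Col6a3 was -0.86 in cells and -0.39 in tumours, larger in cells (interaction adjusted p = 0.0449), and counted as lost when corrected. Col4a2 was gained as counted, 0.32 in cells and -0.54 in tumours, and opposite when corrected, where its effect in cells passed (0.30, adjusted p = 0.0103).

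In the TGF-beta pathway the ligand Tgfb3 had the largest fall in tumours. It stood at 52.4, 59.2 and 31.7 CPM in control and 32.7, 29.9 and 46.2 CPM in knockdown cells. In tumours it stood at 359.5, 560.0, 524, 478 and 474 CPM in control and 126, 91.2, 95.1, 123 and 84.3 CPM in knockdown libraries. The lowest control tumour was above the highest knockdown tumour, while the cell groups overlapped. The effects were -0.40 (SE 0.21, adjusted p = 0.243) and -2.20 (SE 0.14, adjusted p = 6.0e-06), an interaction of -1.77 (SE 0.26, adjusted p = 2.8e-04), gained in 16 of 16 fits and when corrected. Ltbp3, which anchors latent TGF-beta, and Furin, the protease that matures it, were gained as well, 0.33 in cells and -0.81 in tumours and 0.13 in cells and -0.84 in tumours. Over the 19 members of the list, 3 were higher and 4 lower in cells, where 3.53% and 6.47% of all members were. In tumours 2 were higher and 10 lower, where 20.7% and 21.1% of all members were (corrected 4 and 5 in cells, 1 and 8 in tumours). Among the 14 at most 2 times higher in control tumours, 6 were lower in tumours. Without control cells 1 or knockdown cells 1, 0 were lower in cells, and without control cells 2, 1. Smad3, a transducer of the signal, was lower in both, -0.38 (SE 0.09, adjusted p = 0.0285) and -0.56 (SE 0.09, adjusted p = 6.9e-04), in 13 of 16 fits.

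The Id genes, targets of BMP and TGF-beta signals that encode inhibitors of basic helix-loop-helix factors, differed between settings. Id3 stood at 30.6, 38.2 and 32.9 CPM in control cells and 61.9, 54.6 and 80.2 CPM in knockdown cells. In control tumours it stood at 24.9, 45.5, 31.6, 31.9 and 29.6 CPM and in knockdown tumours at 17.7, 20.7, 16.4, 18.5 and 19.0 CPM. Knockdown cells were all above control cells, and knockdown tumours all below control tumours. The effects were 0.94 (SE 0.14, adjusted p = 0.00258) and -0.81 (SE 0.14, adjusted p = 0.00118), an interaction of -1.73 (SE 0.22, adjusted p = 1.0e-04), corrected -1.49 (adjusted p = 1.4e-04), opposite in 16 of 16 fits. Id1 was lost, 0.89 (SE 0.15, adjusted p = 0.00427) and -0.32 (SE 0.14, adjusted p = 0.0828), and so was Id2, 1.07 (SE 0.17, adjusted p = 0.00369) and 0.34 (SE 0.13, adjusted p = 0.0526), in 15 and 8 of 16 fits. Both stayed lost when corrected.

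Of 26 genes of the integrated stress response, switched on by ATF4, 8 were higher and 1 lower in cells, and 3 were higher and 6 lower in tumours (corrected 9 and 0, 7 and 6). Of all members 3.53% were higher in cells, and 20.7% were higher and 21.1% lower in tumours. The medians were 0.20 and -0.04, and corrected 0.08 and -0.03. In fits without control cells 1, control cells 3 or knockdown cells 1, 1, 4 or 4 were higher in cells. Atf5, an ATF4-related factor, was opposite, 0.58 (SE 0.12, adjusted p = 0.0155) and -0.58 (SE 0.10, adjusted p = 8.6e-04), also when corrected (0.35 and -0.41), but its call in cells was missed without control cells 1, 2 or 3. Ddit3, which encodes CHOP, was lost, 0.72 (SE 0.11, adjusted p = 0.0033) and -0.23 (SE 0.13, adjusted p = 0.175), in 16 of 16 fits and when corrected. Phgdh, the first enzyme of serine synthesis, was lost too, 0.49 in cells and -0.24 in tumours, in 10 of 16 fits. Of 12 cytosolic heat shock members, 3 were higher in cells and 5 in tumours, with 0 lower in either (corrected 4 and 4 higher). The medians were 0.15 in cells and 0.30 in tumours (corrected 0.18 and 0.225). By class 2 were lost, 1 was shared and 1 gained. The small chaperone gene Cryab was lost, 1.48 (SE 0.17, adjusted p = 5.6e-04) and 0.29 (SE 0.17, adjusted p = 0.178). Hspa1b, an inducible HSP70, was 1.56 (SE 0.13, adjusted p = 8.7e-05) and -0.14 (SE 0.32, adjusted p = 0.742), with a corrected interaction that did not pass (adjusted p = 0.0631). After leaving out control cells 1 or knockdown cells 3 it did not pass either (-1.61, adjusted p = 0.0526 and -1.60, adjusted p = 0.0564).

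Of 32 replication and mitosis members, 7 were higher and 3 lower in cells, where 3.53% and 6.47% of all members were. In tumours 13 were higher and 2 lower, where 20.7% and 21.1% of all members were. The medians were 0.04 and 0.14 (corrected 0.08 and 0.14, with 10 higher and 4 lower in cells and 11 and 2 in tumours). Without control cells 1, control cells 2 or knockdown cells 1, 0, 2 or 0 were higher in cells. Bub1, a spindle checkpoint kinase, was opposite: it went from 166 ± 6.84 to 121 ± 9.18 CPM in cells and from 30.5 ± 3.42 to 48.1 ± 3.42 CPM in tumours (SD, n = 3 and n = 5 each). Its effects were -0.46 (SE 0.09, adjusted p = 0.0121) and 0.67 (SE 0.09, adjusted p = 3.0e-04), and Top2a, topoisomerase II alpha, had -0.41 (SE 0.10, adjusted p = 0.028) and 0.31 (SE 0.07, adjusted p = 0.00473). Both stayed opposite when corrected, and the call in cells was missed without control cells 1 or knockdown cells 1, for Top2a also without control cells 2 or 3. Mki67, the proliferation marker Ki-67, was gained, -0.29 (SE 0.13, adjusted p = 0.189) and 0.50 (SE 0.09, adjusted p = 9.6e-04). All 32 genes had a lower mean in control tumours than in control cells. Myc was higher in both, 0.41 (SE 0.09, adjusted p = 0.015) and 0.51 (SE 0.14, adjusted p = 0.0118), in 14 of 16 fits, and the AP-1 gene Fosl1 as well, 0.65 (SE 0.10, adjusted p = 0.00265) and 0.98 (SE 0.17, adjusted p = 0.00116). Of the 16 immediate early members, 5 were higher and 3 lower in cells, and 7 higher and 1 lower in tumours (corrected 5 and 3, 10 and 0). The medians were 0.15 and 0.33 (corrected -0.08 and 0.38). By class 4 were shared, 3 lost (1 of them a rise in cells) and 1 gained. Klf6 was gained (-0.35 in cells and 0.56 in tumours). The ERK phosphatase genes Dusp5 and Dusp6 were lost (-0.63 in cells and 0.24 in tumours, and -0.37 in cells and 0.19 in tumours). Dusp5 was opposite when corrected, and Dusp6 was lost in 12 of 16 fits.

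Glycolysis and hypoxia genes were lower in both settings where called, 4 of 28 in cells and 16 in tumours, with 0 higher (corrected 7 and 11 lower). By DESeq2 5 were lower in cells and 17 in tumours, with 0 higher, and 0 were higher at an unadjusted p under 0.05 in either. Without control tumour 4, control tumour 5 or knockdown tumour 5, 8 were lower in tumours, and without knockdown tumours 3 and 5, 7. In fits without control cells 1, control cells 2 or knockdown cells 1, 1 was lower in cells, and without control cells 3 or knockdown cells 3, 9 or 8. The medians were -0.24 and -0.41 (corrected -0.28 and -0.32), and the interaction was called in 4 as counted and in 0 when corrected. The glycolytic mutase gene Pgam1 (-0.65 (SE 0.13, adjusted p = 0.00987) and -0.60 (SE 0.15, adjusted p = 0.00799)) and Pdk1, a kinase that diverts pyruvate from mitochondria (-0.71 (SE 0.12, adjusted p = 0.00385) and -0.56 (SE 0.16, adjusted p = 0.0159)), were shared, also when corrected. Pgam1 left the class without control cells 1, control cells 2 or knockdown cells 1. Hexokinase 2, Hk2, was -0.66 in cells and -0.32 in tumours, shared in 8 of 16 fits and not when corrected (-0.17 in tumours, adjusted p = 0.194).

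Ribosomal and respiratory chain genes moved with the correction. The 32 ribosomal protein members had medians of 0.23 in cells and 0.05 in tumours, and 0.04 and -0.01 when corrected. The 32 nuclear respiratory chain members had medians of 0.23 and -0.04, and 0.04 and -0.17 when corrected. Of the latter, 8 had a called interaction with a lower effect in tumours, 7 when corrected. After leaving out control cells 1, control cells 3 or knockdown cells 3 the 8 fell to 2, 3 or 2, and without knockdown tumours 3 and 5 to 4. Cox4i1, a cytochrome oxidase subunit, was 0.37 (SE 0.11, adjusted p = 0.0602) and -0.31 (SE 0.09, adjusted p = 0.0134), and Rplp1, a protein of the ribosomal stalk, 0.33 (SE 0.13, adjusted p = 0.132) and -0.62 (SE 0.11, adjusted p = 0.00109), both gained also when corrected. As counted, the uncalled rise of Cox4i1 in cells was larger in size than its fall in tumours. Among 28 lysosomal members 2 were higher in cells, where 3.53% of all members were. In tumours 3 were higher and 9 lower, where 20.7% and 21.1% of all members were (corrected 2 higher and 1 lower in cells, 3 and 6 in tumours). Without control tumour 4 or knockdown tumour 5, or without knockdown tumours 3 and 5, 5 were lower in tumours. The glucosidase gene Gaa (0.18 in cells and -0.61 in tumours) and the proton pump subunit gene Atp6v0d1 (-0.06 in cells and -0.68 in tumours) were gained in 16 and 16 of 16 fits and when corrected.

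**Figure D4:**
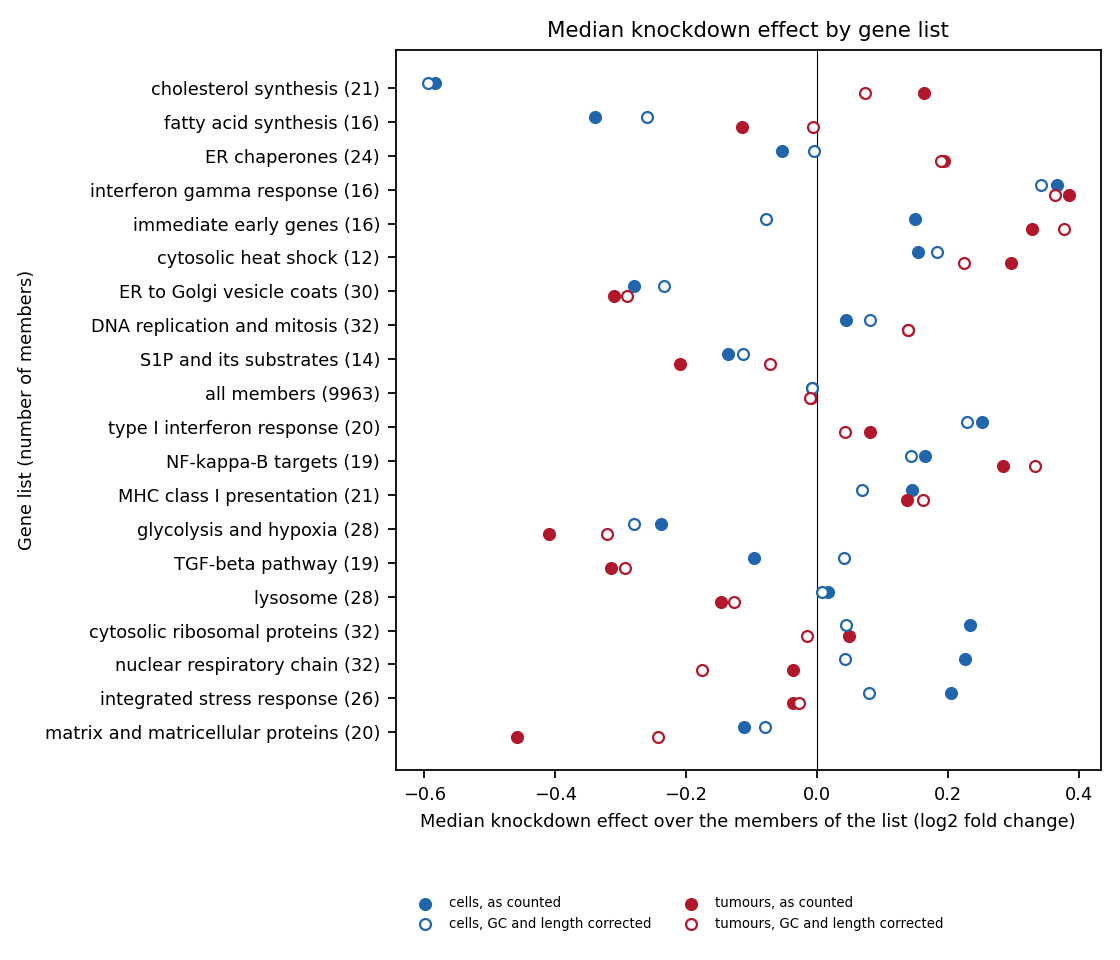
Median log2 fold change of knockdown against control over the members of each gene list, in cells (blue) and tumours (red), as counted (filled) and corrected for transcript GC content and length (open), with the number of members in brackets. Cholesterol synthesis has the lowest median in cells, -0.58, and lies at 0.16 in tumours. The vesicle coat and interferon gamma lists, among several others, have medians of one sign in both settings.

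Genes taken by size within the classes had to have libraries without overlap where called. Their lack of overlap, like that of Msmo1, Id3 and Tgfb3 above, was thus set by the choice. By size within the classes, the shared rises included Prl2c2, a proliferin gene whose reads may be shared with near-identical relatives. It stood at 41.9, 39.5 and 87.8 CPM in control cells, 265, 259 and 220.0 in knockdown cells, 1.05, 0.642, 0.553, 1.27 and 0.706 in control tumours and 6.94, 5.89, 8.57, 5.86 and 6.13 in knockdown tumours. No knockdown library overlapped its controls, although the level was lower in tumours, and the effects were 2.12 (SE 0.26, adjusted p = 8.4e-04) and 3.02 (SE 0.23, adjusted p = 1.2e-05). Its call in cells was missed without knockdown cells 2 or 3 (2.09, adjusted p = 0.0572 and 2.21, adjusted p = 0.0827). Serpinb9b, a relative of the granzyme B inhibitor, was 1.16 in cells and 1.10 in tumours and Afap1l2, an adaptor of actin and Src signals, 1.02 in cells and 1.25 in tumours, both shared in 16 of 16 fits and when corrected.

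Among shared falls besides Mbtps1, Il33, an alarmin cytokine, was -2.46 (SE 0.33, adjusted p = 0.00129) in cells and -1.18 (SE 0.28, adjusted p = 0.00545) in tumours, from 7.35 ± 1.33 to 1.33 ± 0.701 and from 1.92 ± 0.607 to 0.823 ± 0.212 CPM (SD, n = 3 and n = 5 each). Its interaction, 1.31 (SE 0.45, adjusted p = 0.0426), was missed in 10 of the 16 fits that left out 1 library, where it ranged from 0.99 to 1.76, and did not pass when corrected (adjusted p = 0.166). Slc46a1, the proton-coupled folate transporter, was -1.59 in cells and -1.09 in tumours and Gnao1, a G protein subunit, -0.99 in cells and -0.93 in tumours, both shared in 16 of 16 fits and when corrected.

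The lost effect with the largest interaction was that of Galnt7, an enzyme of O-linked glycosylation. It stood at 89.5, 86.0 and 82.9 CPM in control cells and 28.8, 29.3 and 25.6 CPM in knockdown cells. In control tumours it stood at 23.7, 23.4, 28.6, 23.3 and 25.4 CPM and in knockdown tumours at 28.2, 24.2, 21.7, 31.8 and 32.5 CPM. The cell groups did not overlap and the tumour groups overlapped. The effects were -1.64 (SE 0.10, adjusted p = 7.9e-06) and 0.16 (SE 0.11, adjusted p = 0.234), an interaction of 1.82 (SE 0.16, adjusted p = 3.2e-06), corrected 1.47 (adjusted p = 6.8e-06), lost in 16 of 16 fits. Of the other falls lost in tumours, Wasf1, a regulator of actin assembly, was -1.73 in cells and -0.31 in tumours and Lmtk2, a membrane kinase, -1.51 in cells and -0.13 in tumours, and both stayed lost when corrected. Tenm4, a transmembrane protein of cell contacts, was -1.34 in cells and 0.17 in tumours and opposite when corrected (0.39 in tumours, adjusted p = 0.0056). Rises lost in tumours were those of Ptn, the growth factor pleiotrophin (1.34 (SE 0.12, adjusted p = 8.8e-05) and -0.33 (SE 0.24, adjusted p = 0.292)), and Tinagl1, a matrix protein (1.29 (SE 0.19, adjusted p = 0.00199) and -0.26 (SE 0.23, adjusted p = 0.386)). Ptn left the class without control tumour 1, where its tumour effect was -0.53, adjusted p = 0.0166.

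Among the gained rises, Msln, which encodes mesothelin, stood at 3.57, 4.59, 2.53, 4.74 and 4.80 CPM in control tumours and 13.1, 16, 15.9, 12.4 and 15.2 CPM in knockdown tumours without overlap, an effect of 1.86 (SE 0.18, adjusted p = 3.7e-05), while in cells the effect was 0.10 (SE 0.22, adjusted p = 0.801). Kctd4 was 0.24 in cells and 2.0 in tumours, Scara5, a ferritin receptor, -0.54 in cells and 1.38 in tumours and Zfp808 -0.20 in cells and 1.53 in tumours. All 4 were gained in 16 of 16 fits and when corrected. Besides Tgfb3, gained falls were those of Adamts4, a protease of proteoglycans (0.26 (SE 0.27, adjusted p = 0.576) and -1.45 (SE 0.26, adjusted p = 0.0014)), Slc5a4a (0.27 in cells and -1.24 in tumours) and Phospho1, a phosphatase of mineralising tissue (0.03 in cells and -1.93 in tumours). The interaction of Phospho1 did not pass when corrected (adjusted p = 0.0511) or without knockdown cells 3 (-1.65, adjusted p = 0.0625).

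Genes higher in knockdown cells and lower in knockdown tumours, besides Id3, included Mmp9, a gelatinase. It stood at 16.4, 20.9 and 13.2 CPM in control cells, 35.9, 35.4 and 37.4 in knockdown cells, 88.5, 100.2, 107, 106 and 100.2 in control tumours and 74.9, 60.1, 53.6, 87.0 and 49.3 in knockdown tumours. No knockdown library overlapped its controls, and the effects were 1.09 (SE 0.15, adjusted p = 0.0014) and -0.62 (SE 0.13, adjusted p = 0.00292). C1qtnf6, a secreted C1q-related protein, was 0.62 (SE 0.11, adjusted p = 0.00702) and -0.99 (SE 0.08, adjusted p = 1.2e-05). Both were opposite in 16 of 16 fits and when corrected. Dpt, a dermal matrix protein and one of the fibroblast markers, was 0.77 in cells and -1.21 in tumours, with a mean of 5.27 CPM in control cells against 199.9 CPM in control tumours, and its call in cells was missed in 5 of 16 fits. In the other direction, Adcy8, a calcium-stimulated adenylyl cyclase, was -1.01 (SE 0.17, adjusted p = 0.00427) in cells and 0.73 (SE 0.13, adjusted p = 0.00108) in tumours, opposite in 16 of 16 fits and when corrected. Scoc, a Golgi coiled-coil protein, was -1.08 in cells and 0.57 in tumours and Tram1, which helps proteins into the endoplasmic reticulum, -1.14 in cells and 0.30 in tumours. Corrected, the tumour effect was 0.01 (adjusted p = 0.922) for Scoc and 0.06 (adjusted p = 0.6) for Tram1, and both counted as lost.

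**Figure D5:**
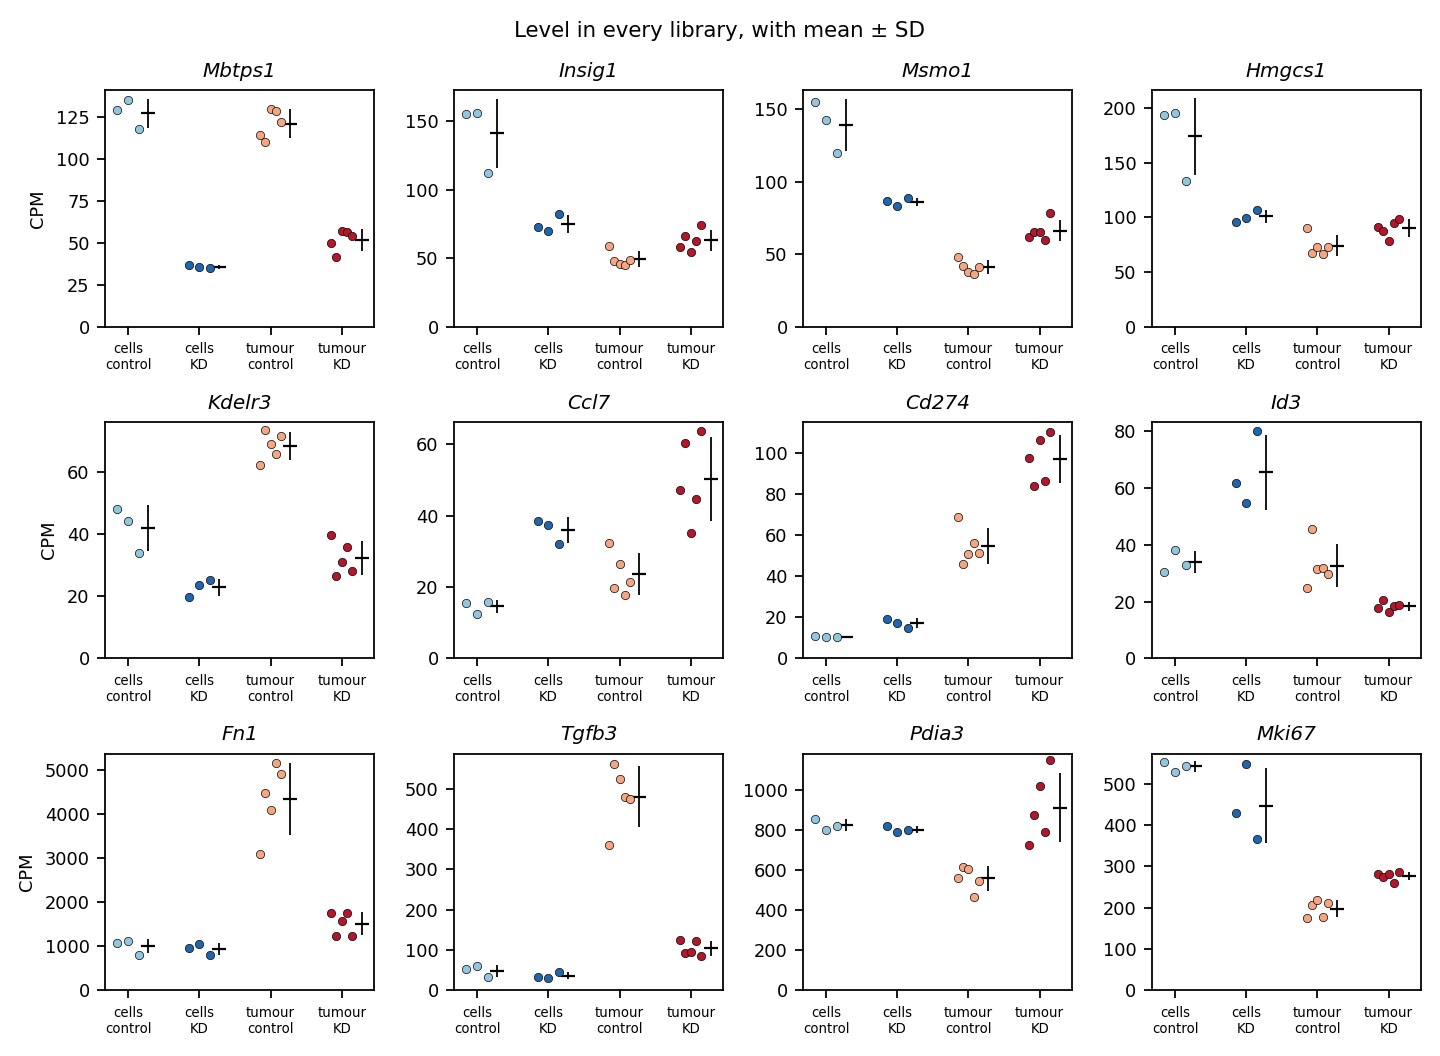
Each panel shows 1 gene, with its level in CPM in each library of the 4 groups (points) and the mean with its SD beside them. Mbtps1, Kdelr3, Ccl7 and Cd274 shift the same way in both settings, Insig1, Msmo1, Hmgcs1 and Id3 shift in different directions, and Fn1, Tgfb3, Pdia3 and Mki67 shift in tumours.

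The classes differed in base composition. The median GC content of the transcript was 42.6% for gained rises and 55.4% for gained falls, 55.4% for lost rises and 45.2% for lost falls, and 56.2% and 43.1% for opposite effects that were higher or lower in cells. For shared rises and falls it was 50% and 51.4%, against 49.8% for all members. Across 9677 members the Spearman correlation of GC content with the effect was 0.366 in cells, -0.481 in tumours and -0.607 for the interaction, and -0.08, -0.106 and -0.0406 when corrected. These are descriptions across genes of the same libraries. Median transcript length was 4648 bases for shared falls and 2030 bases for shared rises, against 3251 for all members. Of the gained falls, 189 of 720 were in genes over 2 times higher in control tumours than in control cells, and of the gained rises 13 of 976.

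The share of genes with the hexamer CTCGGA in the 3′ untranslated region differed between the classes. It is 1 fixed sequence, taken with earlier results of these data known, and no other hexamer was compared. The shares were not adjusted for length, and a longer region is likelier to hold any hexamer. Median transcript length was 4648 bases for shared falls, 4613 for lost falls and 2030 for shared rises. The shares are therefore a description of the classes only. Of 9509 members with an annotated 3′ untranslated region in GENCODE M21, 1083 (11.4%) hold it. It was present in 41.4% of shared falls, 34.7% of lost falls and 22.2% of opposite falls in cells, and in 4.82% of shared rises. Of the 209 genes with the hexamer that were lower in cells, 82 (39.2%) were also lower in tumours and 22 were higher. Of the 414 without it that were lower in cells, 116 (28%) were also lower in tumours and 77 were higher. Corrected, the shares were 41.8% of 237 and 29.1% of 621. Galnt7, Wasf1, Slc46a1 and Gnao1 hold the hexamer, and Mbtps1, Il33, Insig1 and Msmo1 do not.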

How the data were processed

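Per the labels' protocols, libraries came from bead-captured mRNA of Trizol extracts (VAHTS V6 kit). The deposited values are raw read counts per gene symbol. The submitters' processing notes list STAR 2.7.1a, HTSeq 0.13.5, cutadapt 1.18 and build hg38, without their roles, while the symbols are mouse. For strand, the setting used in counting is unknown here. In the deposited counts 2582 symbols are at 0 in all cell libraries and 322 in all tumour libraries, and 154 symbols share their counts with another. The lowest non-zero sums are 13 in cells and 15 in tumours, so a low row may have been set to 0.

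Counts were fitted with edgeR 4.0.16 in R 4.3.3 (TMM, filterByExpr, robust quasi-likelihood, Benjamini-Hochberg adjustment): 11905 genes in cells, 13997 in tumours, and 12581 of the 12692 with counts in both settings for the interaction over 16 libraries. The corrected fits added offsets for transcript GC content and length (GENCODE M21), known for 97.1% of members. RefSeq promoters matched 80.2% of members. Genes were named by rule: Mbtps1, up to 2 per list with the smallest interaction p, and per class and direction 4 whose libraries did not overlap where called, by the size of the interaction (shared: of the smaller effect), leaving out predicted genes. Other list members described were chosen after their values were seen. The members, lists and rules were chosen with earlier results of these data known. Alternatives used limma 3.58.1 and DESeq2 1.42.0. The fits were tested on simulated counts, which held no slope on GC content and no replicates that stood apart. That test therefore cannot speak to either. The pooled screen of the series was not used here. A few list members count in the totals and are not reported here by name.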

Additional observations from a re-analysis of the deposited data

Results flagged for a closer look

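In the genes listed here the knockdown effect differed, as counted, between tumours and cells by the test of that difference itself. The test was the interaction of edgeR's quasi-likelihood fit at an adjusted p under 0.05. Each value is the tumour effect minus the cell effect on the log2 scale. Mbtps1 aside, the genes were chosen by the smallest interaction p of their list or by size within a class. Corrected for GC content and length, the interaction did not pass for several, among these Derl2, Sec24a, Tmed2, Gbp7, Mif, Pfkm, Il33, Hspa1b and Phospho1. Among sterol, fatty acid and secretory pathway genes the difference was Mbtps1 0.65, Msmo1 1.42, Insig1 1.31, Cyp51 1.12, Scd2 1.03, Scd1 0.87, Derl2 0.86, Pdia3 0.80, Sec24a 0.75 and Tmed2 0.38, all higher in tumours. Among stress and lysosomal genes it was Atf5 -1.14, Ddit3 -0.94, Cryab -1.17, Gaa -0.77 and Atp6v0d1 -0.60. Among interferon, antigen presentation and NF-kappa-B genes it was Gbp7 1.11, Socs1 -0.98, Isg15 -1.11, Rsad2 -1.46, Psmb10 -0.94, Nlrc5 0.84, Vcam1 0.82 and Cxcl1 1.09. Among matrix, metabolic and ribosomal genes it was Fn1 -1.40, Col4a2 -0.84, Mif -0.68, Pfkm -0.49, Rplp1 -0.93, Rplp0 -0.72, Cox4i1 -0.66 and Ndufv1 -0.75, all lower in tumours. Among cell cycle and immediate early genes it was Bub1 1.15, Top2a 0.75, Klf6 0.93 and Dusp5 0.90. Among the genes taken by size from the shared and lost classes it was Il33 1.31, Galnt7 1.82, Tenm4 1.52, Wasf1 1.43, Lmtk2 1.40, Hspa1b -1.68, Ptn -1.66, Tinagl1 -1.53 and Id1 -1.18. Among those of the gained class it was Scara5 1.94, Kctd4 1.79, Msln 1.78, Zfp808 1.75, Phospho1 -1.94, Tgfb3 -1.77, Adamts4 -1.68 and Slc5a4a -1.48. Among those of the opposite class it was Adcy8 1.76, Scoc 1.67, Tram1 1.46, Dpt -1.95, Id3 -1.73, Mmp9 -1.70 and C1qtnf6 -1.59.

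In 6 of these genes 1 tumour library lay apart from the other 4 of its group by Dixon's criterion, which chance meets in about 1 of 20 groups. Both tumour groups of all 65 genes named by rule were examined, so this number is near the share that chance gives. Control tumour libraries with such a value were those of Insig1 (59.3 CPM), Kctd4 (1.28 CPM), Psmb10 (405 CPM) and Klf6 (71.7 CPM). Knockdown tumour libraries with such a value were those of Il33 (1.19 CPM) and Ddit3 (63.8 CPM).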

How the results depend on the processing

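Another scaling (DESeq2 size factors, library totals, TMM within each setting), no filter, adjustment over members alone, limma voom, effects from the 16-library fit, member thresholds of 1 and 20 CPM, and members at most 2 times higher in control tumours kept the counts of calls and classes over all members within 1.5 times of the values above. Counts within gene lists moved more, those of the interferon, MHC class I, matrix and TGF-beta lists with the member rule. DESeq2 called 254 opposite genes. Tested against a log2 difference of 0.3, the interaction was called in 547 members with a higher and 300 with a lower effect, and 122 genes were lost and 557 gained. Correction for GC content and length gave 745 and 632 interaction calls and 789 gained genes. That correction without knockdown cells 3 gave 468 and 340 calls, 173 lost and 460 gained genes. Without knockdown tumours 3 and 5, 1113 genes were gained and 99 opposite. Of the 2548 interaction calls, 47 changed sign with the correction and 31 with the correction without knockdown cells 3.

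Leaving out 1 library at a time gave 925 to 1715 higher and 562 to 1306 lower interaction calls, 253 to 1416 calls in cells and 3132 to 4559 in tumours. It gave 103 to 344 shared, 90 to 462 lost, 1009 to 2132 gained and 28 to 251 opposite genes.

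Same-numbered replicates correlated at -0.271 to 0.0111 in cells and at -0.337 to 0.232 in tumours. The main fits did not treat the numbers as pairs, and these few correlations cannot exclude a pairing. With a replicate block, 455 members were called in cells, and 152 were shared, 154 lost and 57 opposite. Of the 2548 interaction calls 1911 were still made with the same sign. With the block and the correction together the interaction was called higher in 420 and lower in 364 members, 2572 were called in tumours, and 165 were lost, 488 gained and 55 opposite.

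With 3 libraries a group, calls in cells rest on few libraries, and a gene without a call is not shown to be unchanged.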
